A study of Mus musculus with 11 samples.

Results

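The interferon-inducible GTPases of the IRG and GBP families were described in epididymal fat, a visceral fat depot, through 8 genes: the IRG genes Igtp, Irgm1, Irgm2, Iigp1 and Ifi47, and the GBP genes Gbp2, Gbp3 and Gbp7. They were taken by name, with every probe set that the platform annotation gives to 1 of these symbols, which made 11 probe sets of 45101; all 8 genes were among the 12709 genes tested. The members were chosen by their signals in these same arrays: the knockout and wild-type values were in view, and the fat rescue values had also been seen. Their differences from wild type are therefore a description, with no test.

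The arrays came from male C57BL/6 mice aged 3 months on standard chow, 1 array per mouse as far as the labels tell. Wild type (B1+/+, 4 arrays) was compared with mice that lack the kinin B1 receptor (B1-/-, 4 arrays), the G protein-coupled kinin receptor that Bdkrb1 encodes. Fat rescue mice (aP2B1-B1-/-, 3 arrays) lack the receptor as well, except for expression in fat from a transgene named for aP2. The gene of aP2, Fabp4, is expressed chiefly in fat cells but also in macrophages. The knockout and the fat rescue mice thus share the loss of the endogenous receptor. The labels do not say whether the mice came from shared litters, and p-values measure the spread between these samples only.

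Adipocyte markers were bright in all groups. The adiponectin gene Adipoq had wild-type signals of 20989 ± 2816 (SD, n = 4), knockout signals of 19213 ± 3146 (n = 4) and fat rescue signals of 19393 ± 2089 (n = 3). Of 6 epididymis markers listed, 5 had a probe set of their own, and 0 of these reached the brightness limit. Array medians lay between 41.3 and 48.8 signal units. Wild-type array 1 and fat rescue array 1 stood apart from the rest on the first principal component, and knockout array 1 held the highest summed macrophage signal.

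IRG and GBP proteins are GTP-binding enzymes of cell-autonomous immunity: cells exposed to interferon make them and load them onto the membranes around intracellular bacteria and parasites. Among IRGs, Irgm1, Irgm2 and Igtp (also called Irgm3) act as regulators on the cell's own membranes, while Iigp1 (also called Irga6) and Ifi47 (also called Irgd) are effectors that assemble on the vacuoles of pathogens. GBPs are larger, dynamin-related GTPases that gather on such vacuoles and on bacteria and promote inflammasome activation. Interferon-gamma turns these genes on through JAK kinases, GAS elements in the DNA, and IRF factors, which bind ISRE elements.

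The stretches upstream of the start sites are shown for the 6 members in which a GAS or ISRE sequence was found, because these are the elements through which interferon acts on the families. The searches used TTCNNNGAA for GAS, which reads the same on both strands, and for ISRE the letters GAAA, any 2 bases and GAAA again, on either strand. Windows of 300 bases (250 before and 50 after the start site) came from RefSeq, GRCm38.p6, and 7 of the 8 members matched by symbol; Iigp1 has no entry. Each printed stretch is the 110 bases before the start site, 5′ to 3′ on the gene's own strand, with matched bases in capitals, including matches that overlap. The regions are chr11:58199446-58199555, plus strand, for Igtp, chr11:58214867-58214976, plus strand, for Irgm2, and chr11:48871421-48871530, minus strand, for Irgm1. Those of the GBP genes are chr3:142620553-142620662 for Gbp2, chr3:142559934-142560043 for the first of the start sites of Gbp3, and chr3:142530226-142530335 for Gbp7, all on the plus strand.
Igtp: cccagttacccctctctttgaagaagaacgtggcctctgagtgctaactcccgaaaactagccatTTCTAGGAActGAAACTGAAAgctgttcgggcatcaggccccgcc
Irgm2: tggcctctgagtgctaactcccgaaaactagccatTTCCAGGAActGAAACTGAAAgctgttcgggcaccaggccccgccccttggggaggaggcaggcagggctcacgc
Irgm1: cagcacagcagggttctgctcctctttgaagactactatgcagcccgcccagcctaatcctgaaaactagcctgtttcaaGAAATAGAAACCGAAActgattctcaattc
Gbp2: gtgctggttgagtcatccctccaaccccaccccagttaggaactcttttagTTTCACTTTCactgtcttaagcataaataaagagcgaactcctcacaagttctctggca
Gbp3: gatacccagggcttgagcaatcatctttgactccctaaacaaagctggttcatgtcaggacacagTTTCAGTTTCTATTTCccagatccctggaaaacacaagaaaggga
Gbp7: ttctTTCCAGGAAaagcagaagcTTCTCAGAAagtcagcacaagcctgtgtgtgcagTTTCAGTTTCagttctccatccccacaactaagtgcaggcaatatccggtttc

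An ISRE sequence was present in 6 of the 7 members with a window, against 3.99% of all 27025 genes with windows of this length. A GAS sequence was present in 3, Igtp, Irgm2 and Gbp7, against 9.55% of these genes, and each of the 3 also held an ISRE. In Igtp and Irgm2, which are neighbours on chromosome 11, the GAS lies just upstream of the ISRE with the same spacing. Shifted by 30 bases against each other, these printed stretches were identical at 78 of 80 aligned bases (97.5%), and the whole windows at 184 of 270 (68.1%). In Irgm1 and in Gbp3 2 overlapping ISRE matches ran into each other. In the 3 GBP genes the ISRE was found on the opposite strand, and the Ifi47 window held neither sequence. A match is a string of letters and no measure of binding, and the absence of a match says only that these letters are not in this window.

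Among the regulators, Igtp was higher in both mutant lines than in wild type. Its only probe set (1417141_at) read 359, 303, 304 and 251 in the 4 wild-type arrays. It read 499, 404, 375 and 480.4 in the knockout arrays and 467, 409.9 and 477 in the fat rescue arrays. Every array of both lines lay above the highest wild-type array, and the lines overlapped each other. The mean went from 304 ± 44.2 in wild type (SD, n = 4) to 439.6 ± 59.7 for the knockout (n = 4) and 451 ± 36.3 for the fat rescue (n = 3). The log2 difference from wild type was 0.53 ± 0.13 (SE) in the knockout and 0.58 ± 0.14 in the fat rescue. With median centring these were 0.38 and 0.48.

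Irgm2, whose upstream stretch is nearly that of Igtp, was very even in wild type and higher in most arrays of the other lines. Its probe set (1417793_at) read 277, 271, 266 and 262 in wild type, an SD of only 6.47 around 269. In knockout it read 359, 318, 271 and 354, and in fat rescue 336, 321 and 376. Knockout array 3 lay among the wild-type arrays, while the other 3 knockout arrays and all 3 fat rescue arrays lay above them. The log2 difference from wild type was 0.27 ± 0.11 (SE) in knockout, or 0.12 with median centring, and 0.35 ± 0.11 in fat rescue.

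Irgm1, the regulator that also protects cells and organelles when interferon is present, showed no separation. Its probe set (1418825_at) read 169, 250.3, 244 and 219.8 in wild type, 220.2, 226, 239 and 274 in the knockout arrays, and 280.1, 233 and 267 in those of the fat rescue. The groups overlapped throughout, with wild-type array 1 the lowest of all. Its log2 difference was 0.13 ± 0.14 (SE) in knockout and 0.25 ± 0.15 in fat rescue, and without wild-type array 1 these were 0.01 and 0.13. With median centring they were -0.02 and 0.15. Of the 3 regulators, Igtp thus lay furthest from wild type and Irgm1 least far.

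Among the effectors, Iigp1 had the widest separation of all members. Its brighter probe set (1419043_a_at) read 619, 598, 669.5 and 499 in wild type. The knockout arrays read 1063, 920.0, 802 and 1159.7, and the fat rescue arrays 1013, 1009 and 992. No array of either line came down to the wild-type range, and the fat rescue arrays were nearly equal, with an SD of 11.4 around 1005. The log2 difference from wild type was 0.72 ± 0.12 (SE) in knockout and 0.76 ± 0.13 in fat rescue. With median centring these were 0.57 and 0.66. The dimmer probe set (1419042_at), an independent set of oligonucleotides on the same arrays, read 226, 238, 213 and 158 in wild type, 310.5, 318, 311 and 393 in the knockout arrays, and 425, 310.1 and 364 in those of the fat rescue. It separated the groups in the same way, with ratios of group means to wild type of 1.60 in knockout and 1.76 in fat rescue, beside 1.65 and 1.68 for the brighter one.

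Ifi47, the other effector, was also higher in every array of both lines, although it holds no GAS or ISRE letters in its window. Its probe set (1417292_at) read 177, 212, 211 and 219.7 in wild type, 352, 249, 230.1 and 246 in the knockout arrays, and 293, 316 and 326 in those of the fat rescue. Knockout array 1 stood well above the other knockout arrays, and the lowest knockout array was only just above the highest wild-type array. The log2 difference was 0.38 ± 0.13 (SE) in knockout, or 0.24 without knockout array 1, and 0.61 ± 0.15 in fat rescue. With median centring it was 0.23 in knockout and 0.51 in fat rescue. On the linear scale the group means were 205 ± 19.1 (SD, n = 4), 269 ± 55.6 (n = 4) and 312 ± 16.8 (n = 3).

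**Figure D1:**
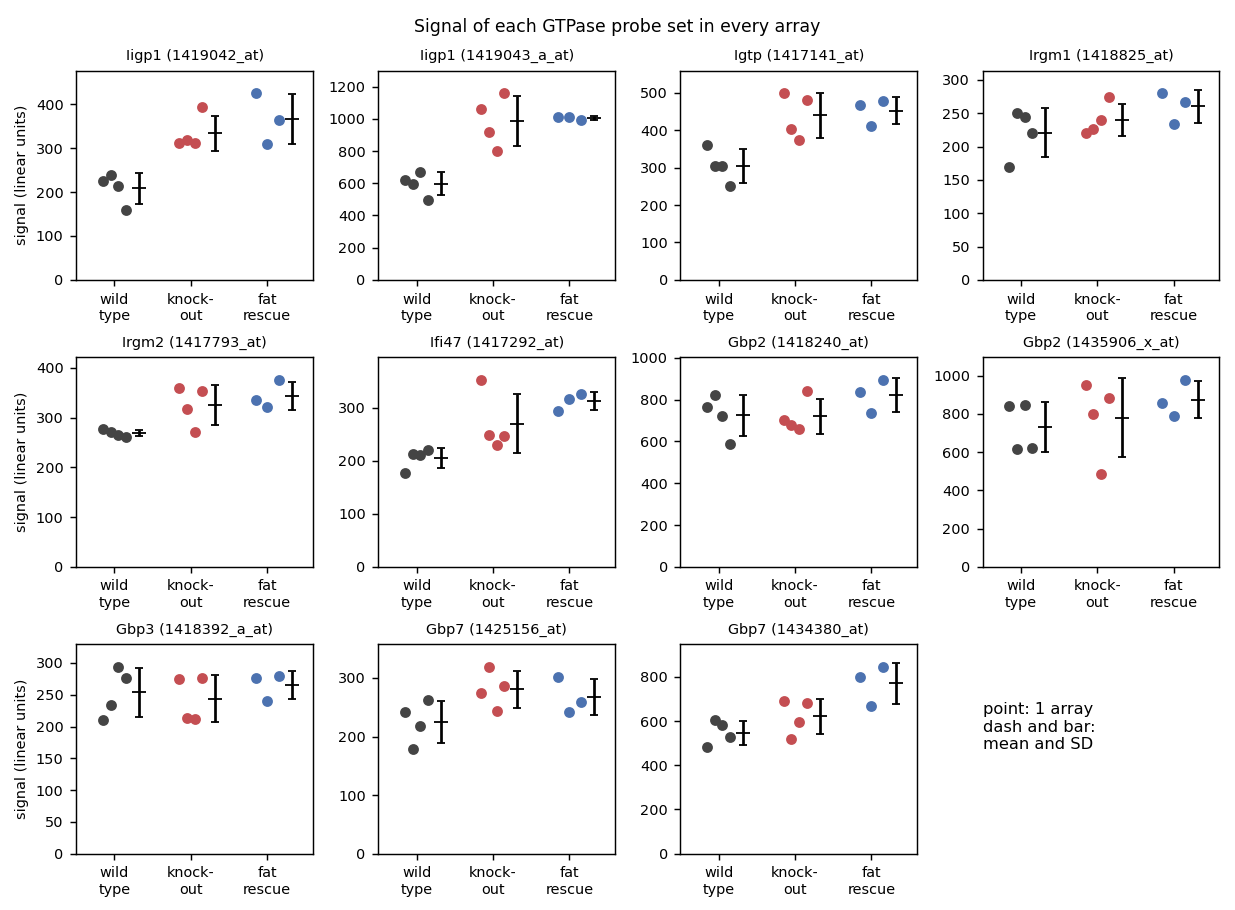
Signal in linear units (vertical axis, from 0) of each of the 11 probe sets of the 8 GTPase genes in every array of wild type (grey), knockout (red) and fat rescue (blue), with the mean and SD of each group. For Iigp1, Igtp and Ifi47 all knockout and fat rescue points lie above all wild-type points, while the groups overlap for Irgm1, Gbp2 and Gbp3.

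The GBP genes differed less from wild type than most of the IRG genes, and only Gbp7 stood out, in fat rescue and with its brighter probe set alone. The brighter Gbp7 probe set (1434380_at) read 483, 603, 581 and 526 in wild type, 692, 518, 594 and 680.2 in the knockout arrays, and 798, 669 and 846 in those of the fat rescue. Knockout overlapped wild type, and all 3 fat rescue arrays lay above it. Its log2 difference from wild type was 0.18 ± 0.12 (SE) in knockout, or 0.03 with median centring, and 0.49 ± 0.13 in fat rescue. The dimmer Gbp7 probe set (1425156_at) read 0.33 ± 0.14 in knockout and 0.26 ± 0.15 in fat rescue on that scale, so that the lines came in the opposite order. In it both lines overlapped wild type.

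Gbp2, which acts at vacuoles of parasites and bacteria, overlapped between all genotypes in both probe sets. The brighter one (1435906_x_at), of a type that can also bind other transcripts, read 842, 619, 848 and 621 in wild type, 951, 802, 484 and 886 in the knockout arrays, and 858, 788 and 978 in those of the fat rescue. The other (1418240_at) had means of 724 ± 99.0 (SD, n = 4), 719.9 ± 82.9 (n = 4) and 822 ± 78.9 (n = 3). In knockout, Gbp2 differed from wild type by 0.06 ± 0.19 (log2, SE) with the brighter probe set and by 0.00 ± 0.12 with the other. In fat rescue these differences were 0.27 ± 0.21 and 0.19 ± 0.12. With the brighter probe set the knockout difference was -0.09 with median centring, 0.28 without knockout array 3 and 0.14 when wild-type array 1 was left out.

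Gbp3 differed little from wild type. Its probe set (1418392_a_at) read 211, 234, 294 and 277 in wild type, 275, 213, 212 and 276 in the knockout arrays, and 277, 240.1 and 279 in those of the fat rescue. The highest array of all was a wild-type one. The log2 difference was -0.05 ± 0.14 (SE) in knockout and 0.07 ± 0.15 in fat rescue, and with median centring these were -0.20 and -0.03. Without knockout array 3 the knockout difference was 0.01, and without wild-type array 1 that of the fat rescue was -0.01.

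Over the 8 genes, 7 had a higher mean in knockout than in wild type and 8 of 8 in fat rescue, with median log2 differences of 0.22 and 0.42; for Irgm1 and Gbp2 the sign in knockout, and for Gbp3 that in fat rescue, turned with median centring, and further signs of Gbp2 and Gbp3 turned without single arrays. Over all 12709 genes the medians were 0.02 and 0.03, and 53.7% and 55.7% of genes had a higher mean. Median centring moved the knockout median of all genes from 0.02 to -0.13, and that of the members to 0.07. Relative to all genes, the members' median was 0.20 above in knockout and 0.39 above in fat rescue. Median centring shifts all genes of an array alike, so it cannot change these values and is no check of them. The IRG genes had medians of 0.38 and 0.58 and the GBP genes 0.06 and 0.27 in knockout and fat rescue. The difference between the families was not tested.

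With limma over all genes, 0 members passed an adjusted p of 0.05 in knockout against wild type, where 5 genes passed (0.0393%) and 928 (7.3%) had an unadjusted p under 0.05. In fat rescue against wild type 0 members passed as well, where 2 genes passed (0.0157%) and 1028 (8.09%) had an unadjusted p under 0.05. Among the alternatives, limma called a member only without knockout array 3, namely Iigp1, in each of these comparisons. That array had the lowest knockout signal in the brighter Iigp1 probe set, so the call is no support. Arrays lay wholly above wild type in 3 members in knockout, Iigp1, Igtp and Ifi47, where 1.98% of all genes did so. In fat rescue they did so in 5, adding Irgm2 and, with its brighter probe set only, Gbp7, where the share of all genes was 5.74%. Since the members were chosen with these comparisons in view, nothing is read from these counts. Both comparisons use the same 4 wild-type arrays.

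The beta-actin ratio of 3' over 5' signal, which reflects RNA integrity, was 1.65 to 1.83 in wild type, 1.53 to 1.69 in knockout and 1.47 to 1.56 in fat rescue, and so separated fat rescue from wild type as several members do. That of Gapdh overlapped between all genotypes. The part of RNA quality in the differences was not tested.

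**Figure D2:**
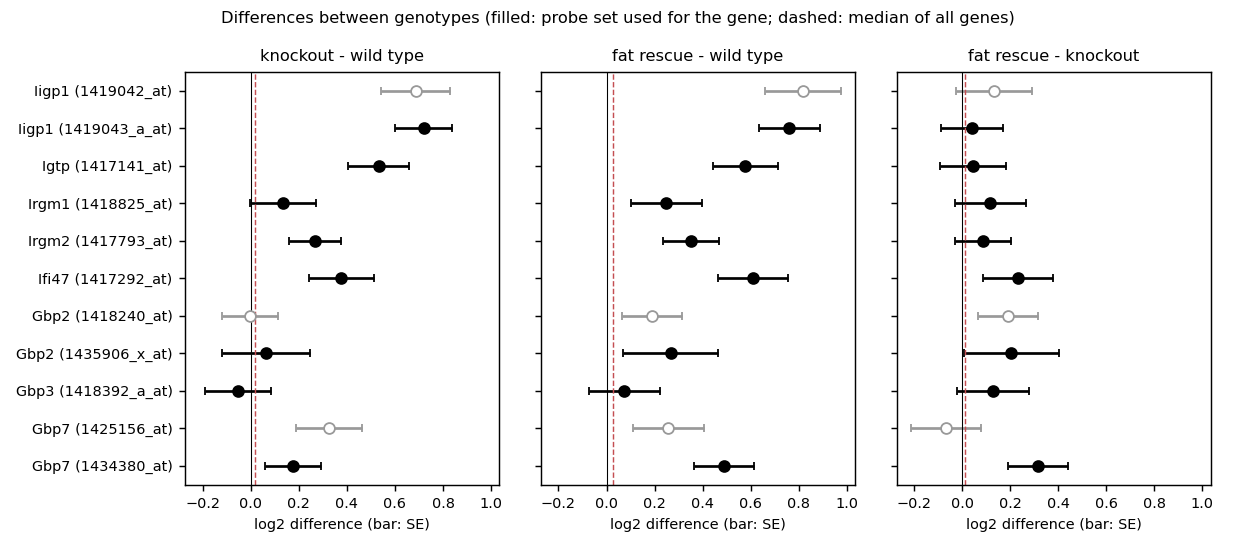
Log2 difference (horizontal axis, with its SE) of each GTPase probe set between pairs of genotypes, filled where the probe set stands for its gene, with the median of all genes dashed. Iigp1, Igtp and Ifi47 lie furthest above 0 against wild type, at up to 0.76 in filled points, and the filled points lie between 0.04 and 0.31 in fat rescue against knockout.

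Fat rescue was set against knockout to ask whether expression of the receptor from the transgene goes with another level of these genes. The members were not picked for this difference, though it uses the knockout arrays that helped to pick them. None of the 8 members passed in limma (adjusted p = 0.998 each), nor did any of the 12709 genes (0%), of which 484 (3.81%) had an unadjusted p under 0.05. Iigp1 differed by 0.04 (log2, 95% interval -0.24 to 0.32), Igtp by 0.05 (-0.25 to 0.34) and Irgm2 by 0.09 (-0.16 to 0.33). The intervals were -0.20 to 0.43 for Irgm1, -0.08 to 0.55 for Ifi47, -0.24 to 0.65 for Gbp2 and -0.19 to 0.45 for Gbp3.

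Gbp7 came furthest, at 0.31 (95% interval 0.04 to 0.59, not adjusted), but its dimmer probe set read -0.07. The arrays of the lines overlapped in all 8 genes with the probe sets used, while 2.84% of all genes had every fat rescue array above every knockout array. All 8 means were higher in fat rescue than in knockout by these small amounts, with a median of 0.12 beside 0.01 over all genes, of which 52.6% had a higher mean. Without knockout array 3 the sign turned for Iigp1, Igtp and Gbp2, and the members' median was 0.03.

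Single mice differed in how high the members stood together. The mean of the 8 members, each centred on its mean over the 11 arrays, was -0.27, -0.20, -0.10 and -0.29 on the log2 scale in the wild-type arrays. In knockout it was 0.24, -0.03, -0.17 and 0.21, and in fat rescue 0.23, 0.10 and 0.29. Knockout arrays 1 and 4 stood with the fat rescue arrays, whereas knockout array 2 lay between those and the wild-type arrays, and knockout array 3 lay below wild-type array 3. Knockout array 3 had the lowest value of its group in Iigp1, Igtp, Irgm2, Ifi47, Gbp2 and Gbp3 with the probe sets used. Without knockout array 3 the median difference of the members from wild type was 0.31 instead of 0.22, and without knockout array 4 it was 0.18.

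After each genotype's mean was subtracted, most members still moved together from mouse to mouse. Pearson's r of these deviations over the 11 arrays was above 0 in 26 of 28 pairs, with a median of 0.47, beside a median of 0.03 between a member and any other gene. A block of Irgm2, Gbp2, Igtp and Iigp1 moved together closely, from 0.70 for Irgm2 with Iigp1 to 0.86 for Irgm2 with Gbp2. Each gene stood here with its brighter probe set only, which for Gbp2 is of the type that can also bind other transcripts. In wild-type array 2 it read 619, and the other Gbp2 probe set read 822. Irgm1 went with Gbp7 (0.67) and Gbp3 (0.56) but not with Igtp (-0.17) or Gbp2 (-0.13). Gbp3 and Gbp7, which are neighbours on chromosome 3, had 0.73. These values are descriptions over 11 points that share arrays and their scaling.

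**Figure D3:**
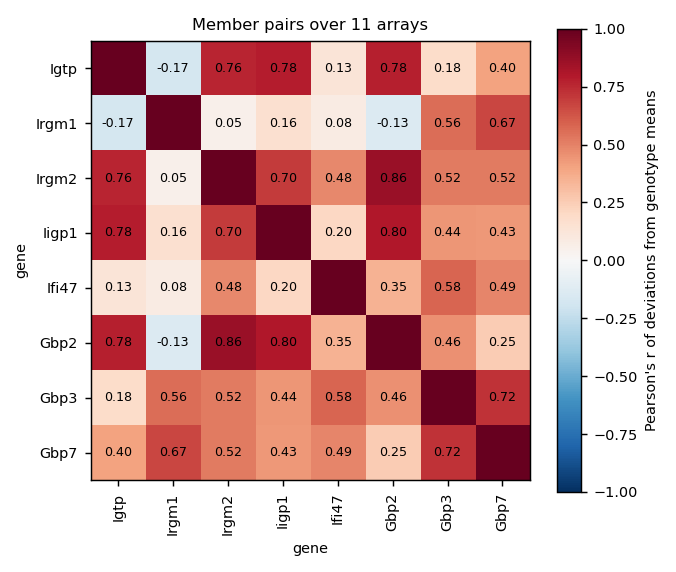
Pearson's r over 11 arrays between the deviations of GTPase genes from their genotype means, for each of the 28 pairs (both axes list the genes; colour from -1 to 1). Igtp, Irgm2, Iigp1 and Gbp2 (with its brighter probe set) form a red block, with 0.70 to 0.86, and Irgm1 is pale against Igtp and Gbp2.

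Outside the 8 genes, 6 further interferon-inducible GTPases or relatives were measured with a probe set of their own, of 23 listed. In knockout 5 of 6 and in fat rescue 6 of 6 had a mean log2 signal above that of wild type (median differences 0.39 and 0.37), and 0 passed in any comparison. Gbp8, a dim GBP gene, was barely so in fat rescue (0.41 ± 0.34 and 0.01 ± 0.36, SE), and its linear mean there was 30.2 against 30.5. Gbp2b, a close relative of Gbp2, was dim, at 24.9, 6.50, 5.80 and 17.8 in wild type. It read 35.1, 63.2, 24.2 and 60.6 in the knockout arrays. The fat rescue arrays read 41.9, 50.3 and 38.2, so all of them lay above wild type. Since its wild-type signals lay below every array median, its log2 differences of 1.90 ± 0.51 and 1.93 ± 0.55 (SE) are no exact sizes.

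Gm4951, an IRG relative, differed by 0.36 ± 0.26 in knockout and 0.62 ± 0.28 in fat rescue, and Mx1, a dynamin-like antiviral GTPase of the type I interferon response, by 1.25 ± 0.52 and 0.51 ± 0.57 at signals of 6.50 to 69.4. Gbp6 (0.19 ± 0.18 and 0.23 ± 0.20) and Irgq (-0.01 ± 0.10 and 0.07 ± 0.11), lay within the spread of replicates. The dimmer Gbp6 probe set (not among those kept) read lower than wild type, at -0.26 and -0.10. A probe set shared by Tgtp1 and Tgtp2, effector IRG genes that it cannot tell apart, was named after its values had been seen. It read 647, 502, 517 and 345 in wild type, 687, 678, 546 and 904 in the knockout arrays, and 828, 705 and 899 in those of the fat rescue. All 3 fat rescue arrays lay above wild type, and knockout array 3 again did not. Of the other shared probe sets, that of Gbp8 and Gbp4 was dim and differed by 0.65 in knockout and -0.79 in fat rescue, and that of Gm4070 and Gvin1 by 0.01 and 0.13, with all groups overlapping in both.

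Of the genes that carry the interferon signal, 17 of 20 listed were measured, and 0 passed in any comparison. In knockout 12 and in fat rescue 13 had higher means than wild type, with medians of 0.07 and 0.10. Irf8, a transcription factor of myeloid cells that binds ISRE-type sequences, had differences of 0.34 ± 0.16 (SE) and 0.59 ± 0.17, and its fat rescue range of 285 to 311 lay above the wild-type range of 179 to 216. Irf1, an interferon-induced transcription factor, read 0.15 ± 0.12 and 0.31 ± 0.13. Ptpn6, the phosphatase SHP-1 of blood cells, read 0.68 ± 0.15 in knockout and 0.22 ± 0.17 in fat rescue. Interferon-gamma itself, Ifng, was below the brightness limit.

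Other targets of interferon had smaller median differences than the IRG genes. The IRG and GBP genes were picked with their own differences in view, so nothing is read from this order. The GBP medians were 0.06 in knockout and 0.27 in fat rescue. Of 27 measured interferon-gamma targets, 20 had higher means in knockout (median 0.15) and 23 in fat rescue (median 0.23), with 0 passing. Arrays lay wholly above wild type in 3 of them in knockout and 7 in fat rescue, beside 1.98% and 5.74% of all genes. Nlrc5, the transactivator of MHC class I genes, differed by 0.37 ± 0.14 (log2, SE) in knockout and 0.57 ± 0.15 in fat rescue, and both lines lay above wild type in every array. The MHC class II genes H2-Aa (0.24 ± 0.12 and 0.38 ± 0.13, log2 with SE) and H2-Eb1 (0.19 ± 0.09 and 0.28 ± 0.10) overlapped with wild type in knockout and lay above it in fat rescue.

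Of 27 type I interferon targets 17 had higher means in knockout (median 0.08) and 24 in fat rescue (median 0.23), again with 0 passing. Arrays lay wholly above wild type in 1 of them in knockout and 7 in fat rescue, beside 1.98% and 5.74% of all genes. They lay wholly below in 2 in knockout and 0 in fat rescue, for which no share of all genes was taken. The 17 and 24 of 27 stand beside 53.7% and 55.7% of all genes. Cmpk2, a nucleotide kinase that accompanies Rsad2, read 0.65 ± 0.15 in knockout and 0.40 ± 0.16 in fat rescue. Rsad2, the antiviral enzyme viperin, read 0.24 ± 0.13 and 0.56 ± 0.14, and Usp18, which removes ISG15 and dampens the type I receptor, 0.34 ± 0.17 and 0.62 ± 0.18. The partners of these GTPases at vacuoles and inflammasomes did not share the direction: 13 of 17 had lower means in knockout (median -0.09) and 10 of 17 in fat rescue (median -0.02). Among them Pycard, the inflammasome adaptor ASC, was higher at 0.56 ± 0.23 and 0.50 ± 0.25, and Atg12, of the autophagy conjugation system, read -0.20 ± 0.14 and -0.38 ± 0.15.

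**Figure D4:**
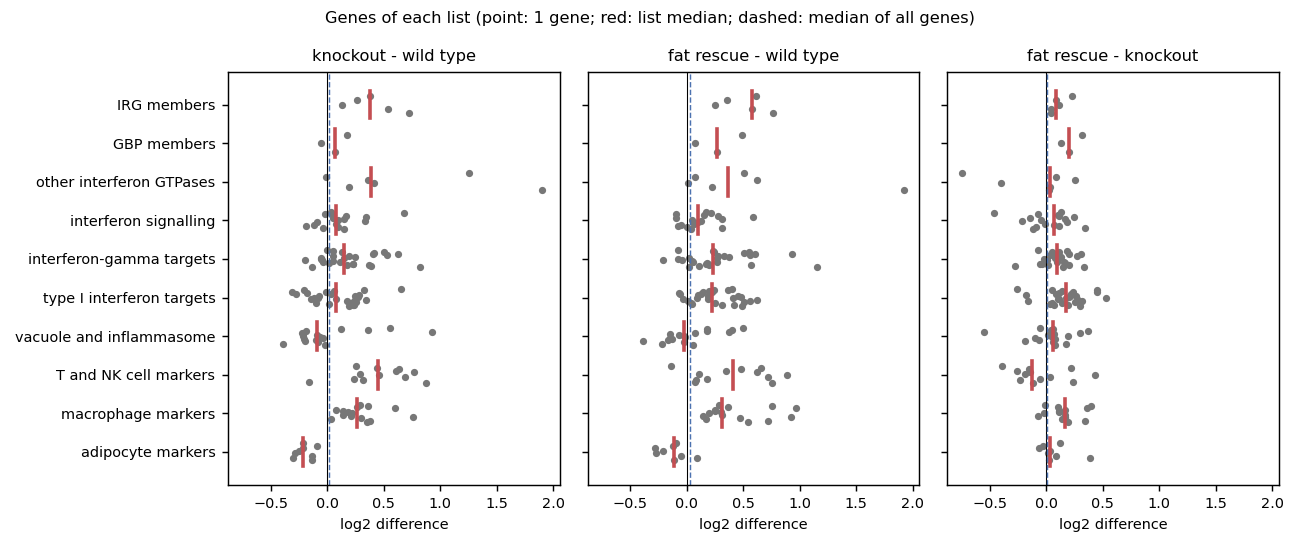
Log2 difference (horizontal axis) of every measured gene of each list between pairs of genotypes; each point is 1 gene, red bars are list medians and the dashed line is the median of all genes. The IRG members and the T and NK cell markers have medians near 0.4 in knockout against wild type, and the adipocyte markers lie below 0.

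Markers of T and NK cells, macrophages, B cells, fibroblasts and the mesothelium had mostly higher means in both lines, as most members had. Of the markers of any cell type, 0 passed. Of 12 measured T and NK cell markers, of 17 listed, 11 had higher means in knockout and 11 in fat rescue than in wild type (medians 0.45 and 0.41). Their summed signal was 437 to 584 in wild type, 630.0 to 761 in knockout and 633 to 704 in fat rescue, so that neither line overlapped wild type. Single arrays did not follow the members throughout: wild-type array 4 was the lowest of all arrays for the members (-0.29) and the highest of its group for these markers (0.02), and knockout array 3 read -0.17 and 0.08. The signals are low: Klrd1, an NK cell receptor chain and the brightest of the 12, read 76.6 ± 8.32 (SD, n = 4), 106 ± 24.7 (n = 4) and 120.5 ± 13.9 (n = 3) in the order wild type, knockout, fat rescue. The dimmest, Cd5, had a wild-type mean of 19.8, below every array median. The granule protease genes Gzma and Gzmb lay above wild type in every knockout array, at 0.61 ± 0.22 and 0.63 ± 0.24 (log2, SE). Both overlapped wild type in fat rescue, at 0.34 ± 0.24 and 0.48 ± 0.26. For Gzma the highest wild-type array read 66.6 and the lowest knockout array 67.7. The wild-type mean of Gzmb, 31.8, lay below every array median, so its log2 differences are no exact sizes. Of the 12 markers 2 lay wholly above wild type in knockout and 1 in fat rescue, beside 1.98% and 5.74% of all genes. T cells and NK cells are the main makers of interferon-gamma. In bulk tissue, more cells of a type and more RNA per cell cannot be told apart, and the part of these cells in the members' levels was not tested.

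All 15 macrophage markers had higher means in both lines (medians 0.26 and 0.31). Their summed signal was 18666 to 26699 in wild type, 20556 to 41812 in knockout and 27602 to 32763 in fat rescue. Knockout array 1 gave the highest sum, and the other knockout arrays lay within the wild-type range. The fat rescue arrays all lay above that range. In fat rescue 8 of the 15 markers lay wholly above wild type, as did 5.74% of all genes. Leaving out knockout array 1 moved the members' median difference in knockout from 0.22 to 0.19, that of Iigp1 from 0.72 to 0.68 and that of Ifi47 from 0.38 to 0.24, and turned that of Gbp2 from 0.06 to -0.05. The part of macrophages in the members' levels was not tested. Markers of the mesothelium, which covers this depot, had higher means in 5 of 6 cases in each line, with medians of 0.15 in knockout and 0.45 in fat rescue, where 3 lay wholly above wild type. Their sums were 2380.2 to 3792 in wild type, 3192 to 3935 in knockout arrays and 3870.5 to 4595 in the fat rescue, and their part was not tested either. Dendritic cell markers, 4 of 7 measured, were higher in 3 and 2 cases (medians 0.03 and 0.32). Adipocyte markers had lower means in 8 of 8 cases in knockout (median -0.22) and 7 of 8 in fat rescue (median -0.12). B cell markers, 4 of 6 measured, had higher means in 4 of 4 cases in each line (medians 0.29 and 0.47). Their sums were 143 to 289.8, 175 to 526 and 262 to 325 in the order wild type, knockout, fat rescue. Fibroblast markers had higher means in 5 of 6 cases in each line (medians 0.19 and 0.08). Endothelial markers did so in 3 of 10 cases in knockout and 8 of 10 in fat rescue (medians -0.06 and 0.15). The part of these cells was not tested. None of the marker genes measured was at 0 in any array.

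**Figure D5:**
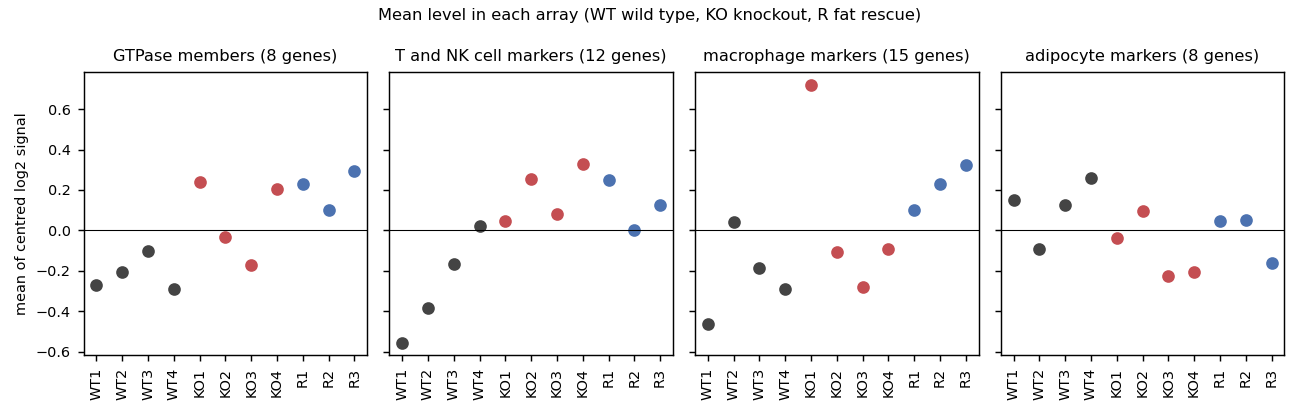
Mean log2 signal per array, centred on each gene's mean over the 11 arrays (vertical axis), for the 8 GTPase members and for markers of T and NK cells, macrophages and adipocytes. The GTPases are lowest in wild-type array 4 (-0.29) and the T and NK cell markers in wild-type array 1 (-0.56), while knockout array 1 reaches 0.72 in macrophage markers.

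The 6 genes whose pattern over the 11 arrays was most like the members' mean were Pbdc1, Ikzf1, B3gnt2, Rbm12, Poc1b and Klrd1, with Pearson's r from 0.92 to 0.95 over 11 arrays. They were the highest among 12701 other genes, so that high values are a property of the choice. Ikzf1, the lymphoid transcription factor Ikaros, had a wild-type mean of 133 ± 16.5 (SD, n = 4), a knockout mean of 180.2 ± 22.8 (n = 4) and a fat rescue mean of 189.9 ± 15.2 (n = 3), with r = 0.94. Klrd1 is one of the NK cell markers above (r = 0.92). B3gnt2, a glycosyltransferase, read 224 ± 16.2, 272 ± 28.9 and 298 ± 23.2, with r = 0.94.

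The members lie in clusters on chromosomes 3, 11 and 18, whereas Bdkrb1 lies on chromosome 12. The 24 nearest measured genes outside the GTPase genes listed here were taken, 3 on each side of each cluster. Of these, 17 had higher means in knockout (median log2 difference 0.10), 15 in fat rescue (median 0.05), and 0 passed. Beside the GBP cluster, Pdlim5 and Kyat3 differed by 0.04 ± 0.12 and 0.08 ± 0.14 (SE) in knockout, and beside Igtp and Irgm2, Mrpl22 and Zfp692 differed by -0.05 ± 0.10 and 0.17 ± 0.20. Those next to Iigp1 were Isoc1 at -0.23 ± 0.09 and BC023105, annotated as a pseudogene, at 1.80 ± 0.51. BC023105 was the highest of the 24 in both lines, with 1.18 ± 0.55 in fat rescue. Whether it is itself related to the IRG genes was not checked. Beside Irgm1 and Ifi47, Trim7 and Btnl9 differed by 0.66 ± 0.54 and -0.30 ± 0.17. These are the nearest measured genes on each side, and they were named after their values had been seen, as were Irgq and Gbp6 above.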

How the data were processed

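RNA from the epididymal fat of 4 wild-type, 4 knockout and 3 fat rescue mice was measured on 1 one-colour Affymetrix array per sample. The deposited values are the authors' linear signal intensity per probe set, made with GCOS 1.3 and MAS5 per the submitters' processing notes. Trimmed means were equal in all arrays when the lowest and highest 2% of values were dropped, so arrays had been scaled to a common level. Detection calls were not used here. Precision is limited by the number of arrays.

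Signals were log2-transformed here, with 1 value of 0 set to the smallest positive value, 0.1. Control probe sets (64) were left out, the 60% with the highest mean log2 signal were kept (27022), and the brightest of these stood for each gene with 1 symbol in the platform annotation (12709 genes). All 11 arrays were fitted with limma 3.58.1 in R 4.3.3 (eBayes with trend, genotype as the only factor, two-sided, Benjamini-Hochberg adjustment over all genes, threshold 0.05). A second fit of every probe set singly gave the values of dimmer probe sets. The fit was tested on simulated data.

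The 8 genes and the other gene lists were chosen with earlier results of these data known. Comparisons with wild type had been seen when the members were chosen, so members carry no test there. Other genes named are, for each list, the 3 with the smallest unadjusted F test p and, for cell markers, the 3 brightest; and the 6 genes most like the members' mean. Not all of them are given. Exceptions are stated where they occur. Promoter windows come from RefSeq, GRCm38.p6. The alternatives were quantile normalization, median centring, log2(signal + 50), no filter, keeping only 40%, averaging the probe sets of each gene, no trend in eBayes, a fit of the compared groups alone, a replicate block, and leaving out each array; leaving out wild-type array 1 and fat rescue array 1 together was added after the data had been seen.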

Additional observations from a re-analysis of the deposited data

Results flagged for a closer look

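Among the 4 knockout arrays, the dimmer Iigp1 probe set (1419042_at) read 393 in array 4, far from the other 3, which lay between 310.5 and 318. The gap to the nearest array took up more of the range than Dixon's 95% limit for 4 samples allows. The check covered 22 groups of 4 arrays, of which about 1 in 20 passes it by chance.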

How the results depend on the processing

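The number of genes that limma called in knockout against wild type, 5, was 10 with median centring, 2 without the trend, 2 with the groups compared alone, 8 with the replicate block, 14 without both arrays that stood apart, and 2 to 14 over the arrays left out singly. In fat rescue against wild type, 2 became 5 with median centring, 6 with the upper 40% of probe sets or without both arrays that stood apart, 1 with the mean of probe sets, without the trend or with the groups compared alone, and 1 to 8 over the arrays left out. Fat rescue against knockout gave 0 in every alternative. The members' median against wild type in knockout was 0.071 with median centring and 0.18 to 0.31 over the arrays left out; in fat rescue it was 0.32 to 0.49 over all alternatives. Members with arrays wholly above wild type numbered 3 or 4 in knockout and 5 to 7 in fat rescue over the arrays left out, and fat rescue lay above knockout in 0 to 2. Leaving out an array can only keep or raise such a count, so these ranges could not have shown a weaker separation. Such counts were not taken under another normalization. Without knockout array 3, fat rescue against knockout turned to -0.054 for Iigp1, -0.028 for Igtp and -0.010 for Gbp2; the cause was not tested. Over the arrays left out the highest values were 0.12, 0.11 and 0.31. Between arrays of equal replicate number, r of the deviations ran from -0.14 to 0.23 for knockout and wild type. It ran from -0.14 to 0.345 for fat rescue and wild type, and from -0.04 to 0.19 for fat rescue and knockout. Replicate 1 was above 0 in each comparison (0.14, 0.345 and 0.19). Unequal replicate numbers were not compared, so these values do not settle whether the numbers mark pairs or a batch. With the replicate block 0 members passed. The number of arrays and the absence of detection calls from these fits limit what dim probe sets can show.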
